A study of Mus musculus with 6 samples.

Results

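The promoters of 10 genes that hold mouse embryonic stem cells in the pluripotent state, Pou5f1, Sox2, Sall4, Esrrb, Klf2, Klf4, Klf5, Tbx3, Zfp42 and Tcl1, were examined for SMAD1/5, SMAD2 and SMAD4 by chromatin immunoprecipitation on promoter arrays (ChIP-chip). All probes that the array design assigned to these names were taken, whatever their values. They were 375 of the 474380 gene probes and belonged to 10 of the 17039 named genes. No gene of the list had a window that passed the limit of enrichment with any of the 3 antibodies, and few genes of the array did: 0% with SMAD1/5, 0.0658% with SMAD2 and 2.49% with SMAD4. The highest window of the list lay upstream of Tbx3, at a SMAD2 z of 3.01 against a limit of 4, and the window with that centre was also above the median window with the other antibodies.

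The cells were R1, a line of mouse embryonic stem cells, undifferentiated and grown without feeders in medium with leukemia inhibitory factor and Knockout serum replacement. All arrays shared this line and culture, and no genotype, time or treatment was varied. Chromatin was precipitated with antibodies raised against the linker regions of recombinant human SMAD1 (labelled SMAD1/5), SMAD2 or SMAD4, and each precipitate, in Cy5, was hybridised together with whole cell extract DNA, the input, in Cy3. Each antibody had 1 biological replicate on 2 arrays that carry different probes, so the 6 arrays gave 1 value per probe and antibody. Without replicates no difference was tested, and the SDs given below are spreads over neighbouring probes, not errors between experiments. The dyes were not exchanged, so a dye bias and enrichment cannot be told apart. The arrays carried DNA and not RNA, so the labelled cell type could not be checked against marker expression.

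SMAD proteins carry signals of the TGF-beta family from the membrane to DNA: SMAD1 and SMAD5 are phosphorylated by BMP receptors, SMAD2 by Activin, Nodal and TGF-beta receptors, and SMAD4 is the partner that both branches share. In mouse embryonic stem cells BMP acts with leukemia inhibitory factor to sustain self-renewal, and Nodal and Activin signals influence the choice of lineage. Pou5f1 (Oct4) and Sox2 are the core DNA-binding pair of the pluripotency network, and Sall4 is a zinc finger factor that works with them. Esrrb, an orphan nuclear receptor, Tbx3, a T-box factor, and the Krüppel-like zinc finger factors Klf2, Klf4 and Klf5 form the part of the network that is linked to the naive state. Zfp42 (Rex1), a zinc finger protein, is a classical marker of undifferentiated cells. Tcl1, a coactivator of the kinase Akt and a target of the network, is not itself a transcription factor.

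The DNA next to the start sites shows which of these promoters hold the short sequences to which SMADs are known to bind. RefSeq promoter sequences of GRCm38.p6, 250 bases before to 50 after a start, matched 7 of the 10 genes with 9 starts, and Klf5, Tbx3 and Sall4 had no entry. The SMAD box GTCT was searched on both strands, where the other reads AGAC, together with its longer form CAGAC, read as GTCTG on the other strand, with the palindrome GTCTAGAC and with GGCGCC, a GC-rich element of BMP-responsive genes. CAGAC and GTCTAGAC contain the box and overlap it. The sequences below were chosen because they span the range from no box to the highest count among the 9 starts. They are written 5′ to 3′ along the gene, with each GTCT or AGAC and each GGCGCC in capitals.
Pou5f1, chr17:35505782-35506081, plus strand: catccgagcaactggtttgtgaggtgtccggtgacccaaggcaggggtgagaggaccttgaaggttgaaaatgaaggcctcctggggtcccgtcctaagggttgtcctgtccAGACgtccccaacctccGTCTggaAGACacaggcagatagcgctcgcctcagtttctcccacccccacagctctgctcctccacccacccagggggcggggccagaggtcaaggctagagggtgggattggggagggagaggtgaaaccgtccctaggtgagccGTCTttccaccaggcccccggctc
Zfp42, chr8:43306960-43307259, minus strand: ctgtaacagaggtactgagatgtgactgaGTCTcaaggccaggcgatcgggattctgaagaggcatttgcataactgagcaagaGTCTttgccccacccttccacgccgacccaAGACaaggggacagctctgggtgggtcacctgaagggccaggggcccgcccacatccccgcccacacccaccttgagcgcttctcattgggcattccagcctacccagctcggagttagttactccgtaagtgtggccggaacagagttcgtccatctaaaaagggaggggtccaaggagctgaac
Tcl1, chr12:105222688-105222987, minus strand: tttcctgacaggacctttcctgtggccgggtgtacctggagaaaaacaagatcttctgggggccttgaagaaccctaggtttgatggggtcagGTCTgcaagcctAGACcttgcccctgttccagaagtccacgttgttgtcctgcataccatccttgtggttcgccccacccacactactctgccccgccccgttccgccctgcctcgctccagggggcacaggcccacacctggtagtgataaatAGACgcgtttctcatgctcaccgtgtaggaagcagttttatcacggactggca
Sox2, chr3:34649745-34650044, plus strand: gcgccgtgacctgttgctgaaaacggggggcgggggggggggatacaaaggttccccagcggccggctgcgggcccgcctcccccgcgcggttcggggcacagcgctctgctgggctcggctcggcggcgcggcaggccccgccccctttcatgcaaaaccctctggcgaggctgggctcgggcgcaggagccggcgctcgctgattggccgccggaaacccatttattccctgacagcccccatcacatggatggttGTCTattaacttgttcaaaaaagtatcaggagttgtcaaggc
Klf2, chr8:72318812-72319111, plus strand: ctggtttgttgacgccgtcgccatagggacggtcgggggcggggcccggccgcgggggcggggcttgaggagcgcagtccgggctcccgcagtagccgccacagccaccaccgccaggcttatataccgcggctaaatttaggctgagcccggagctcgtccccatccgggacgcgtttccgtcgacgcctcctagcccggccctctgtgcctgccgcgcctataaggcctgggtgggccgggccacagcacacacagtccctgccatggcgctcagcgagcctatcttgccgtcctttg
Klf4, chr4:55532426-55532725, minus strand: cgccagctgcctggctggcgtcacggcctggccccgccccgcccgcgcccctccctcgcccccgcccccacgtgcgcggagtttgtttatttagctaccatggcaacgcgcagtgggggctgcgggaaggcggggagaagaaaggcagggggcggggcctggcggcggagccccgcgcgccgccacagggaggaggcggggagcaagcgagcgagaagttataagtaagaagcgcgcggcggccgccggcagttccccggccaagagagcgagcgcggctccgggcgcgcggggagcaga

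GTCT occurred in 7 of the 9 member promoters and in 88.0% of all 32851 promoters of the table, so its presence did not set these genes apart. Pou5f1 had 4 boxes at the start shown and 3 at a second annotated start, Zfp42 and Tcl1 had 3 each, Esrrb had 3 and 2 at its 2 starts, and Sox2 had 1. Klf2 and Klf4 had none in this window, which says only that these letters are absent there. CAGAC was found in 4 of the 9 promoters (49.6% of all promoters), GTCTAGAC in 0 (0.213%) and GGCGCC in 1, the second Esrrb start (11.9%). The octamer ATGCAAAT, or ATTTGCAT on the other strand, which Pou5f1 protein recognises, occurred in 1 member promoter, that of Zfp42, and in 1.74% of all promoters. The Sox element ACAATG, or CATTGT on the other strand, occurred in 2, at one start each of Esrrb and Pou5f1, and in 12.6% of all promoters. The Krüppel-like element GGGTGTGG, or CCACACCC on the other strand, occurred in 1, again Zfp42, and in 3.56% of all promoters. The promoters without a box were rich in GC, 69.3% in Klf2 and 74.3% in Klf4 against a median of 52.7% over all promoters. Starts with boxes were mostly above that median too, such as Sox2 (66.3%) and the Pou5f1 start shown (62.7%). Only the second Pou5f1 start was below it (45.7%). These are matches of letters, not bound sites.

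The probes nearest to the starts, within the 250 bases before and 50 after the array's own start position, differed between antibodies. The mean of these probes was below 0 in 7 of the 10 genes with SMAD1/5 (64.9% of all genes with such probes), in 4 with SMAD2 (48%) and in 9 with SMAD4 (57.5%). The median of the 10 means was -0.56 with SMAD1/5, 0.13 with SMAD2 and -0.56 with SMAD4, against -0.62, 0.02 and -0.12 over all genes. The exception with SMAD4 was Klf4. Klf4, without a box, had 2 such probes with a mean log2 ratio of -1.29 with the SMAD1/5 antibody, -0.04 with SMAD2 and 0.14 with SMAD4. Pou5f1, with 4 boxes at the start shown, also had 2, with means of -0.43, -0.75 and -0.32. The single Zfp42 probe at -47 bp read 2.21 with SMAD1/5, 1.22 with SMAD2 and -0.64 with SMAD4, and the single Tcl1 probe at 12 bp read 1.68, 1.70 and -0.76. At both probes the inputs of SMAD1/5 and SMAD2 were below the median of their array (-1.30 and -1.40 at Zfp42, -0.50 and -0.93 at Tcl1), while the SMAD4 input was above it (1.44 and 1.18). Their genome build was not given in the sources used here, so probes were placed only by the distance that the array design states.

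The ratio is the log2 of precipitate over input signal after each array was centred on its median, and a value of 1 is a 2-fold higher precipitate. The 10 genes had 29 to 46 probes each, of which 235 lay upstream, 138 inside the gene and 2 downstream. Over the whole platform the ratios of the SMAD1/5 arrays were spread more widely, with SDs of 1.93 and 1.76, than those of SMAD2 (0.933 and 0.913) and SMAD4 (0.990 and 0.980). The SMAD1/5 inputs were well above background at 72.3% and 87.0% of probes. Of the member probes, 64 of 375 were not well above background in the SMAD1/5 input, 30 in the SMAD2 input and 0 in the SMAD4 input, and none was saturated.

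Single probes at or above 1 were common in the list and in the background alike. With the SMAD1/5 antibody 136 of 375 member probes (36.3%) reached this value, against 27.5% of all probes. With SMAD2 53 of 365 (14.5%) did, against 12.7%, and with SMAD4 38 of 375 (10.1%), against 16.5%. The share of member probes was thus above the background with SMAD1/5, near it with SMAD2 and below it with SMAD4. At or below -1 lay 102 (27.2%), 53 (14.5%) and 44 (11.7%) member probes, against 31%, 13.5% and 10.1% of all probes. The SMAD1/5 share of high member probes depended on the processing and was 9.87% after normexp background correction and 12.8% in the authors' deposited table. The share of all probes was not computed in these settings, so these values cannot be set against the 27.5% above. The SD over member probes was 1.86 with SMAD1/5, 0.94 with SMAD2 and 0.86 with SMAD4, against 1.85, 0.92 and 0.98 over all probes.

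**Figure D1:**
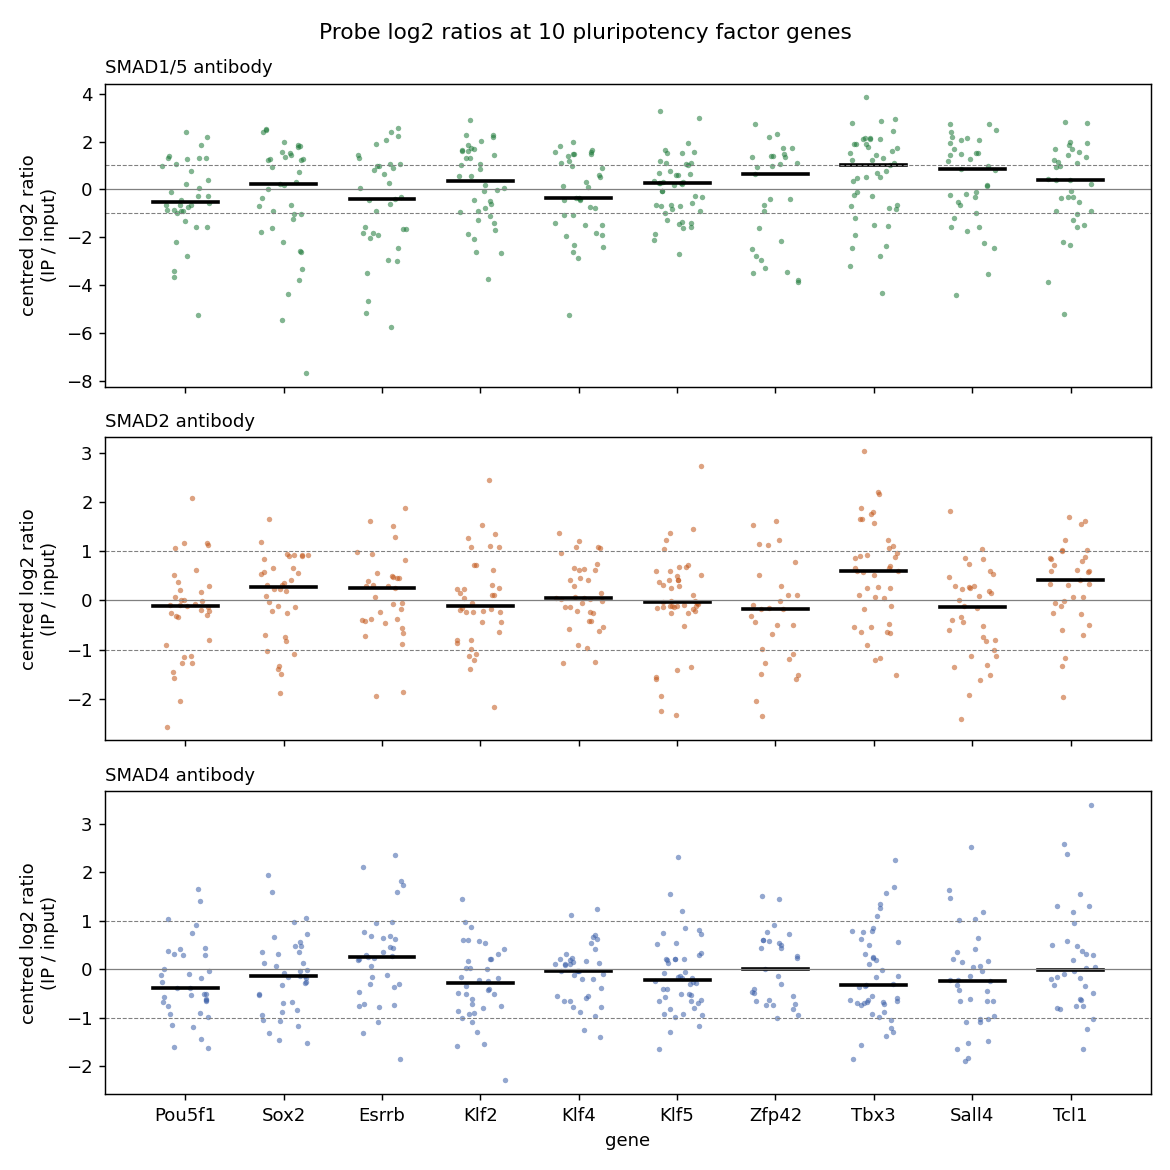
Each point is 1 probe, plotted by gene, with the centred log2 ratio of precipitate over input on the vertical axis and 1 panel per antibody; black bars are gene medians and dashed lines mark 1 and -1. The points of all 10 genes lie on both sides of 0 with every antibody, and the vertical range is widest with SMAD1/5, where the lowest Sox2 probe is at -7.67.

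Probes were then averaged over windows of 500 bp to either side of each probe, and each window was scored by its z, the number of robust SDs by which it lay above or below the median window of its array. For enrichment a window had to reach a z of 4 and to hold 2 or more probes past the 95th percentile of its array. None of the 10 genes was enriched with SMAD1/5 (0% of all 16725 genes with windows), SMAD2 (0.0658% of 16722) or SMAD4 (2.49% of 16725). None had a low window, at a z of at most -4 by the mirrored rule, against 2.62%, 0.329% and 0.0478% of all genes. After normexp correction Pou5f1 (z 4.44) and Esrrb (z 4.14) were called with SMAD1/5, but in that setting 5.14% of all genes were. Sox2 and Zfp42 had a low SMAD1/5 window in that setting, for which the share of all genes was not computed. With the other 9 settings no member was called with any antibody. A call needed a mean log2 ratio of 4.61 and 4.17 on the 2 SMAD1/5 arrays and 2.23 to 2.30 on the others.

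Below that limit, 1 member reached a z of at least 2 with SMAD1/5 (Tbx3; 5.94% of all genes did), 1 with SMAD2 (Tbx3; 18.4%) and 2 with SMAD4 (Sall4 and Tcl1; 40.1%). At a z of at most -2 lay 4 members with each antibody, against 32.2%, 30% and 18.2% of all genes. These counts ranged from 0 to 7 for a SMAD1/5 z of at least 2 over the 10 alternative settings. The median highest z of the 10 genes was 1.63 with SMAD1/5, 1.64 with SMAD2 and 1.51 with SMAD4, against 1.26, 1.35 and 1.74 over all genes. The members had more probes to choose from, a median of 37 per gene against 28, and the part of this in their highest windows was not tested.

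**Figure D2:**
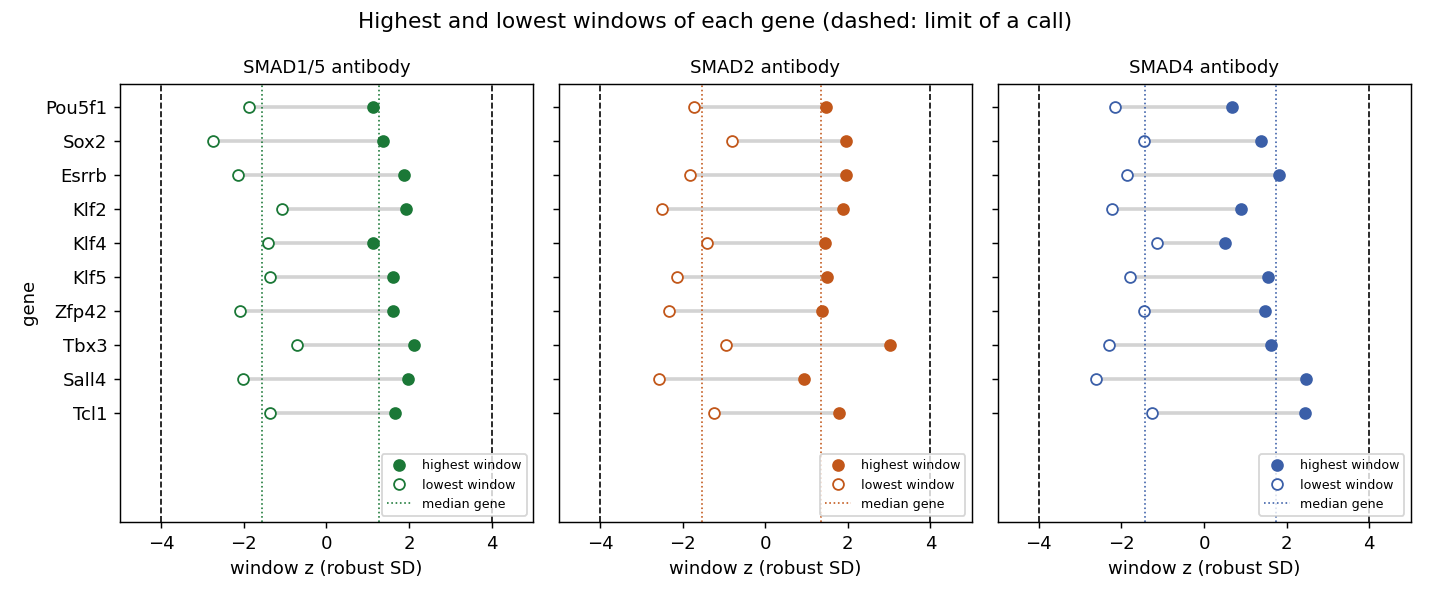
Filled circles are the highest and open circles the lowest window z of each gene, in robust SDs, with 1 panel per antibody; dashed lines mark the limits of a call at 4 and -4, and dotted lines the median highest and lowest z over all genes. No circle passes a dashed line, and the nearest is Tbx3 with SMAD2 at 3.01.

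Of the core pair, Pou5f1 had gene medians below 0 with all 3 antibodies: -0.51 with SMAD1/5 (19.5th percentile of genes), -0.11 with SMAD2 (32.2nd) and -0.38 with SMAD4 (9.02nd). The SMAD4 median stayed below 0 in every alternative setting that can move it, between -0.38 and -0.02. Settings that change only the window width or its least number of probes cannot move a gene median. The lowest SMAD4 window of Pou5f1 was centred at -1634 bp (chr17:33605303-33606195 in the array's coordinates), where all 6 probes were below 0 with a mean of -1.12 ± 0.40 (SD over probes) and a z of -2.15. In the same window the SMAD2 z was -1.53. The SMAD4 precipitate was 0.36 and the SMAD4 input 0.79 above the mean of the other antibodies there, so the input was raised by more than the precipitate. The highest Pou5f1 windows reached a z of only 1.14, 1.48 and 0.67.

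Sox2, the partner of Pou5f1, had medians of 0.21, 0.27 and -0.14 for SMAD1/5, SMAD2 and SMAD4. Its most marked feature was a low SMAD1/5 ratio at -700 bp, where 3 probes averaged -3.47 ± 1.92 (z -2.74), the lowest z of the list. At the probe at -896 bp the SMAD1/5 input was 5.94, the SMAD2 input 1.59 and the SMAD4 input 0.40 above the array median, while the precipitates were 1.92, 1.99 and 1.01. Over the window the SMAD1/5 input was 3.85 above the mean of the other inputs, and the SMAD1/5 precipitate was below the mean of the other precipitates, at -0.62. The z of this window was 0.70 with SMAD2 and 0.32 with SMAD4. The lowest single probe of the list, -7.67 at 1648 bp inside Sox2 with SMAD1/5, had an input of 6.12 and a precipitate of -2.23. The highest Sox2 windows were at z 1.37, 1.96 and 1.38 and were centred at -1999, -4719 and -4352 bp.

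Sall4 differed between antibodies. Its median was 0.84 with SMAD1/5 (94.1st percentile), -0.13 with SMAD2 (27.6th) and -0.24 with SMAD4 (20.0th). The SMAD1/5 median stayed above 0 in every alternative that can move it (0.26 to 0.98). Its best SMAD1/5 window lay at -1390 bp, where 5 probes averaged 2.18 ± 0.46 (z 1.97). In that window the SMAD1/5 precipitate was 0.81 above the other precipitates and the input 0.64 below the others (-0.64). With SMAD4 the highest window, at -4625 bp, averaged 1.45 ± 1.09 over 3 probes (z 2.48), and the lowest, at 1677 bp inside the gene, -1.39 ± 0.42 over 6 probes (z -2.62). The high SMAD4 window had an input of -3.21 and a precipitate of -0.71 relative to the other antibodies. In the 9 alternatives that gave this window a value, its z was at least 2 in 4 and ranged from -0.85 to 2.49.

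Esrrb had medians of -0.40 with SMAD1/5, 0.24 with SMAD2 and 0.26 with SMAD4, so the last were at the 83.2nd and 82.2nd percentile. Its highest SMAD2 and SMAD4 windows largely overlapped. They were centred at -952 bp (chr12:84362117-84363019, 7 probes, 1.11 ± 0.55, z 1.97) and at -784 bp (chr12:84362228-84363206, 7 probes, 1.09 ± 0.86, z 1.83). Where both were read in 1 window, the lesser of the z values of SMAD2 and SMAD4 was 1.83, the 96.6th percentile of 16722 genes. In these windows the precipitates did not stand apart: relative to the mean of the other antibodies they were at -0.002 for SMAD2 and -0.01 for SMAD4, while the inputs were at -1.98 and -1.67. That mean includes a high SMAD1/5 input. At -952 bp the inputs were 2.71 with SMAD1/5, -0.81 with SMAD2 and -0.38 with SMAD4. At -784 bp they were 2.74, -0.91 and -0.75, so the SMAD2 and SMAD4 inputs lay near each other. The SMAD1/5 z there was -1.70 and -1.84, and the SMAD1/5 input reached 7.51 at -1098 bp and 6.08 at -952 bp. Over the alternatives the z of the SMAD2 window ranged from -0.33 to 2.24 and that of the SMAD4 window from 0.06 to 1.84. With windows of 250 bp the highest z of Esrrb was 2.54 with SMAD2 and 2.98 with SMAD4, and with normexp the SMAD2 median was -0.79.

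The Krüppel-like genes gave no common pattern. The Klf2 medians were 0.36, -0.11 and -0.29 for SMAD1/5, SMAD2 and SMAD4, and the SMAD4 median lay at the 14.9th percentile. Klf4 had medians of -0.36, 0.05 and -0.03 and the smallest highest z with SMAD4, 0.52, while Klf5 had 0.25, -0.04 and -0.22. The highest windows were at z 1.92, 1.87 and 0.89 for Klf2, at 1.12, 1.45 and 0.52 for Klf4 and at 1.61, 1.50 and 1.56 for Klf5. Klf2 had its lowest windows upstream, at -4028 bp with SMAD2 (-1.38 ± 0.56, z -2.49) and at -2982 bp with SMAD4 (-1.17 ± 0.34, z -2.22). The single lowest SMAD4 probe of the list, -2.30 at 453 bp, was also in Klf2. Of the 13 other measured Krüppel-like genes, Klf15 was enriched with SMAD4 (z 4.47), as were 2.49% of all genes, and none of the 13 was with the other antibodies. A z of at least 2 was reached by 0, 3 and 5 of the 13 with SMAD1/5, SMAD2 and SMAD4, against 5.94%, 18.4% and 40.1% of all genes. The highest SMAD2 z of the 13 was that of Klf11, at 3.09.

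Tbx3 had the highest gene medians of the list with SMAD1/5 (1.01, 97.1st percentile) and SMAD2 (0.60, 99.0th), and a median of -0.32 with SMAD4 (12.7th). The SMAD1/5 median depended on the processing and ranged from -0.02 to 1.02 over the alternatives, while the SMAD2 median stayed above 0 (0.18 to 0.62). Its best SMAD2 window was centred at -2644 bp (chr5:118901493-118902441), and its 6 probes, from -3135 to -2243 bp, read 1.58, 1.22, 0.60, 1.80, 3.03 and 2.19. All 6 were above 0, with a mean of 1.74 ± 0.83 and a z of 3.01 (98.4th percentile of highest windows). With SMAD1/5 the same window had a mean of 2.11 ± 1.20 (z 1.91), and with SMAD4 0.98 ± 0.74 (z 1.62). The least of the 3 z values was thus 1.62, a height that 81 of the 16722 genes reached or passed (99.5th percentile). Tbx3 was the only member of the 10 with a least z of at least 1, which 7.96% of all genes had; the least z of the other 9 lay between 0.21 and 0.89.

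The single channels of this Tbx3 window did not all move the same way. The SMAD2 precipitate was 0.28 lower than the mean of the others (-0.28) and the SMAD2 input 0.95 lower (-0.95). The SMAD1/5 precipitate averaged 1.10, the SMAD2 precipitate 0.73 and the SMAD4 precipitate 0.91 above their array medians, against inputs of -0.33, -1.10 and 0.05. All 3 precipitates were above their array medians, and the inputs of the antibodies differed more than the precipitates did. The highest SMAD2 z of Tbx3 was between 2.40 and 3.52 over the 10 alternatives, and the z of the window at -2644 bp between 2.36 and 3.09 in the 9 that gave it a value. The SMAD1/5 windows of Tbx3 peaked further upstream, at -3284 bp, with a mean of 2.36 ± 0.99 over 4 probes (z 2.12), and held the highest SMAD1/5 probe of the list, 3.84 at -2989 bp. The lowest SMAD4 window of Tbx3 lay inside the gene at 593 bp (-1.22 ± 0.52, 6 probes, z -2.31).

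**Figure D3:**
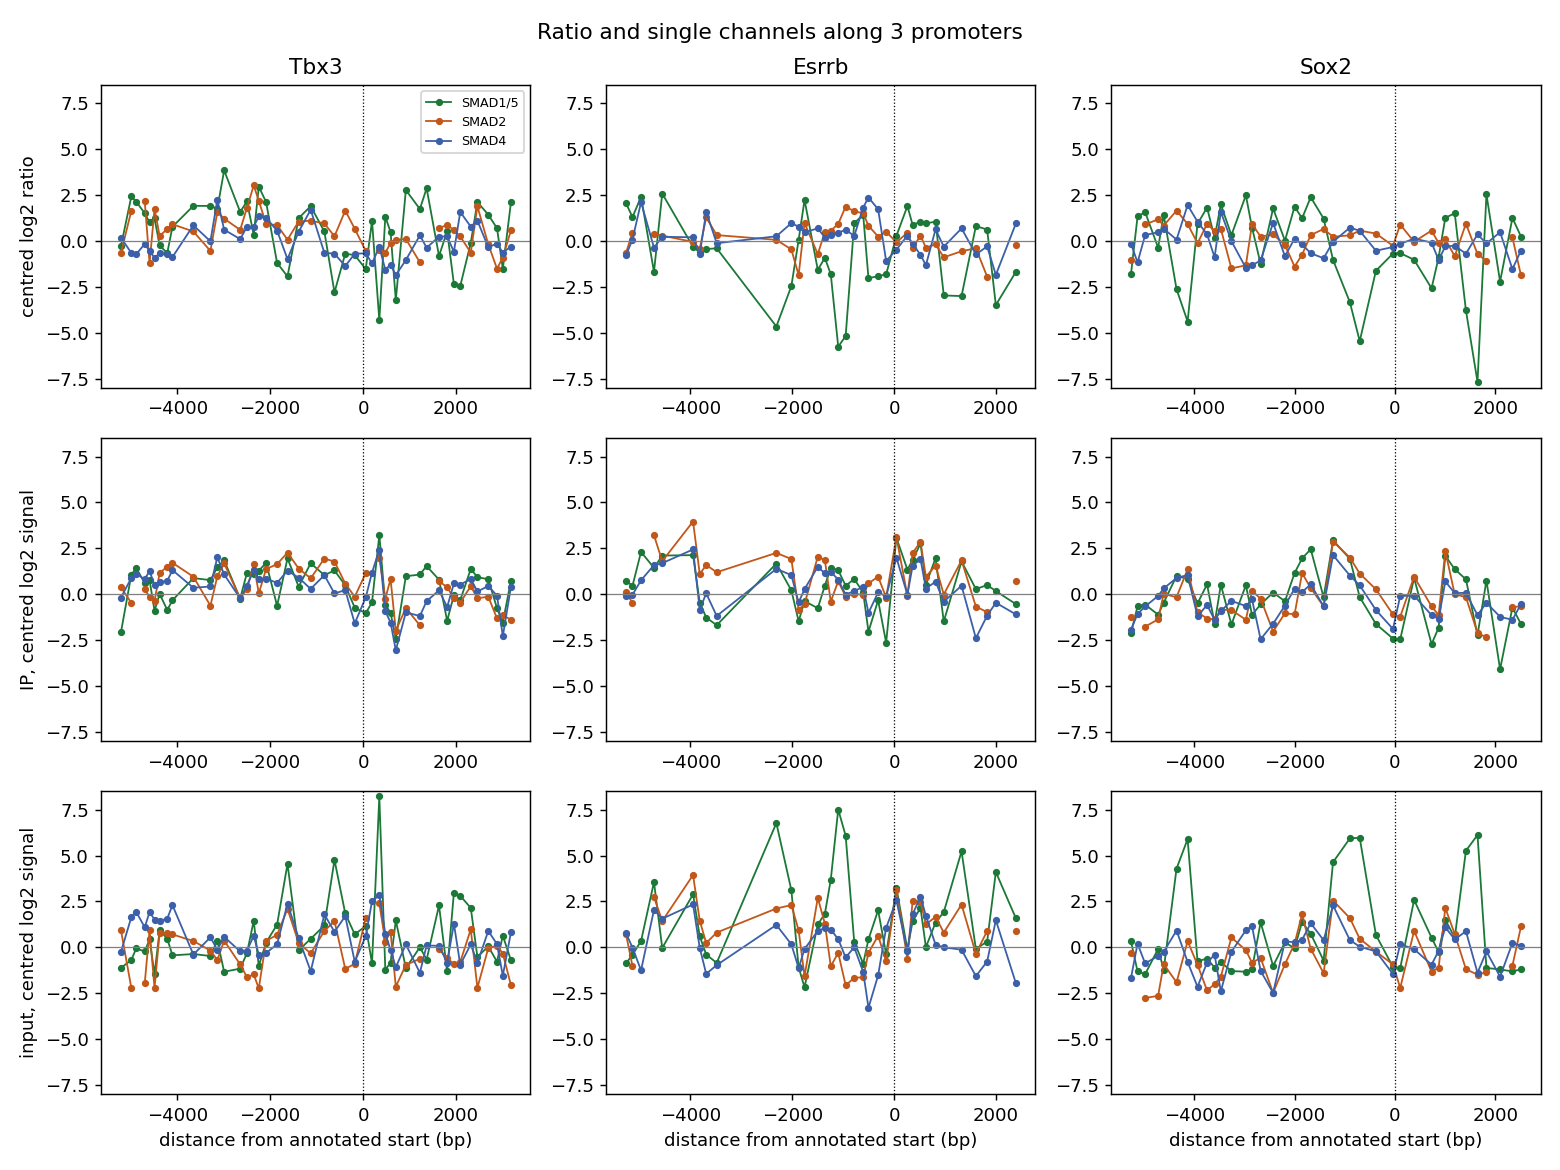
Along Tbx3, Esrrb and Sox2, probes are plotted by distance from the annotated start in bp, with the centred log2 ratio in the top panels, the precipitate signal in the middle and the input signal at the bottom; lines join probes of 1 antibody. The Tbx3 ratios of the 3 antibodies lie above 0 near -2644 bp, and the low SMAD1/5 ratios of Esrrb and Sox2 sit where the SMAD1/5 input is high, up to 7.51 at Esrrb.

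Zfp42, the marker of undifferentiated cells, had medians of 0.65 with SMAD1/5 (87.7th percentile), -0.18 with SMAD2 (18.0th) and -0.0031 with SMAD4 (50.6th). The SMAD1/5 median was below 0 in 4 of the alternatives that can move it and reached -0.28 with bright probes only. Its best SMAD1/5 window covered the start region at -297 bp, where 4 probes averaged 1.73 ± 0.88 (z 1.60). There the SMAD1/5 input was 1.85 lower than the others (-1.85) and the precipitate 0.54 lower (-0.54). Zfp42 and Klf2 lie on chromosome 8, where both channels were raised over the whole chromosome: the input medians were 0.44, 0.46 and 0.62 and the precipitate medians 0.60, 0.47 and 0.59 with SMAD1/5, SMAD2 and SMAD4. The ratio of that chromosome had a median of 0.40 with SMAD1/5, 0.02 with SMAD2 and -0.01 with SMAD4. Relative to it the SMAD1/5 medians were 0.24 for Zfp42 and -0.04 for Klf2.

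Tcl1 had medians of 0.38, 0.41 and -0.0075, of which the SMAD2 value lay at the 94.9th percentile. The SMAD2 median stayed above 0 in every alternative that can move it (0.19 to 0.37). Its best SMAD2 window was close to the start, at -312 bp, where all 6 probes were above 0 with a mean of 1.01 ± 0.55 (z 1.78). The SMAD2 precipitate there was 0.19 above the mean of the others and the input 1.32 lower (-1.32). The inputs themselves were 2.36 with SMAD1/5, -0.13 with SMAD2 and 0.03 with SMAD4, so the SMAD1/5 input was the one that stood apart. With SMAD4 the highest z, 2.45 at -4868 bp, rested on 1 of 3 probes: the probe at -4381 bp read 3.39 with an input of -3.54, and the others 0.32 and 0.59. In the 9 alternatives that gave this window a value, its z was at least 2 in 7 and ranged from 0.34 to 2.57. Nearer the start, the SMAD4 probes at -551 and -438 bp read 2.38 and 2.59, where SMAD1/5 read -1.02 and -5.21.

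The single channels were read in the 10 highest windows of each antibody, 1 per gene. These windows were chosen by the ratio, which a low input raises, so the counts are a description. The precipitate was at least 1 above the mean of the other precipitates in 3 of 10 with SMAD1/5 (Sox2, Esrrb and Klf2), 1 with SMAD2 (Klf4) and 0 with SMAD4, against 21.9%, 9.52% and 5.25% of the highest windows of all genes. An input lower by 1 or more than the other inputs' mean was seen in 1 of 10 with SMAD1/5, 7 with SMAD2 and 5 with SMAD4, against 13%, 45.3% and 57.9% of the highest windows of all genes. For SMAD2 and SMAD4 that mean includes the SMAD1/5 input, so a high SMAD1/5 input also gives such a difference. In the SMAD2 window of Sall4 the inputs were 3.23 with SMAD1/5, -1.03 with SMAD2 and -1.29 with SMAD4. In that of Sox2 they were 0.04, -2.05 and -0.09 in the same order. Of the other SMAD2 windows with such a difference, Esrrb, Zfp42 and Tcl1 had SMAD1/5 inputs of 2.71, 3.05 and 2.36. Their SMAD2 inputs were -0.81, 0.10 and -0.13 and their SMAD4 inputs -0.38, 0.01 and 0.03. In Pou5f1 and Klf5 the SMAD2 inputs, -0.83 and -1.45, lay below those of SMAD1/5 (1.31 and -0.15) and SMAD4 (0.85 and 0.18). How often each was the case with SMAD4 was not counted. The windows were centred within 1000 bp of the start in 1, 6 and 2 of 10.

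**Figure D4:**
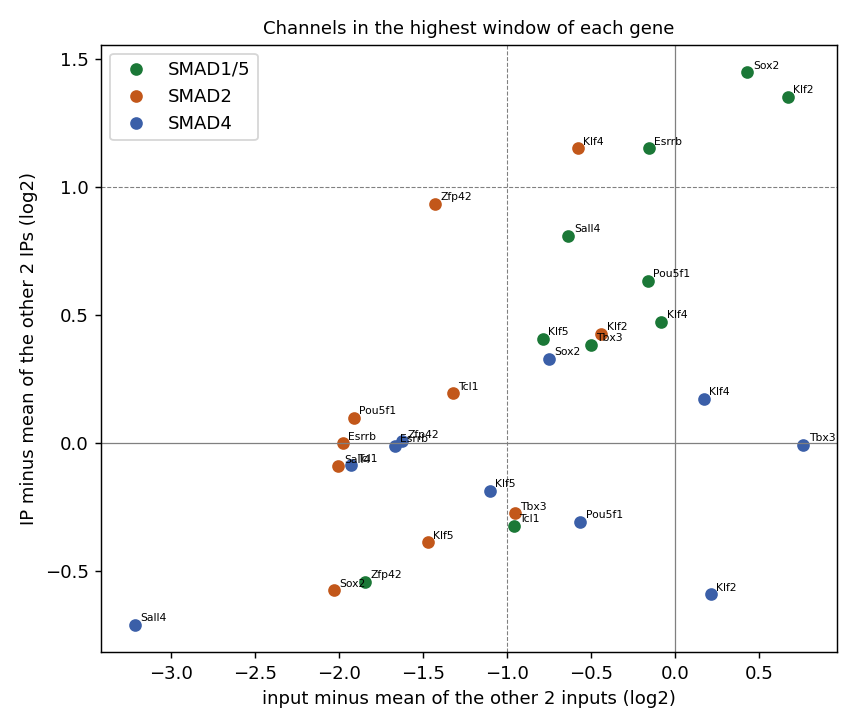
Each point is the highest window of 1 gene with 1 antibody, with its input minus the mean of the other inputs on the horizontal axis and its precipitate minus the mean of the other precipitates on the vertical axis, both log2; dashed lines mark -1 and 1. For SMAD2, 7 of 10 points lie left of -1, and the lowest input difference is that of Sall4 with SMAD4 at -3.21.

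Both channels were also compared probe by probe, beside the background of all probes and again relative to the mean of the other antibodies. Of member probes at a ratio of at least 1, the input was at least 1 below the other inputs in 42 of 131 (32.1%) with SMAD1/5, 40 of 53 (75.5%) with SMAD2 and 25 of 35 (71.4%) with SMAD4, against 32.2%, 71.4% and 72.4% of all such probes. The precipitate was at least 1 above the others in 36 (27.5%; all probes 34.9%), 4 (7.55%; 15.2%) and 3 (8.57%; 15.9%). The SMAD1/5 input was at least 2 above the other inputs at 72 of 365 member probes (19.7%; all probes 17.6%), where the median ratio was -2.42. The SMAD2 input was at least 2 below the others at 46 (12.6%; all probes 11.1%) and the SMAD4 input at 48 (13.2%; 16.4%). The probes with a high SMAD1/5 input were found in each of the 10 genes, from 4 in Pou5f1 to 10 in Klf4. The shares of high ratios with an input below the others lay near those of the array. The shares with a precipitate above the others were below those of the array with each antibody, on only 4 probes with SMAD2 and 3 with SMAD4. This was not particular to high ratios. Over all member probes the shares were 16.7%, 18.4% and 10.1%, against 19.1%, 24.3% and 13.1% of all probes. The part of the inputs in the ratios was not tested further.

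Across member probes the ratios of different antibodies hardly ran together. Pearson's r was 0.04 between SMAD1/5 and SMAD2 (365 probes), -0.09 between SMAD1/5 and SMAD4 (375) and 0.12 between SMAD2 and SMAD4 (365). The precipitates alone correlated at 0.63, 0.68 and 0.77 and the inputs alone at 0.49, 0.36 and 0.55 in the same order. Each ratio ran against its own input, with r of -0.70, -0.49 and -0.53 for SMAD1/5, SMAD2 and SMAD4, and hardly with its own precipitate (0.14, 0.07 and 0.06). These are descriptions across probes, which share an array, a base composition and neighbouring DNA and, for the last, a term of the ratio itself. Over all probes the corresponding r of ratio and own input were -0.60, -0.42 and -0.51.

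By position, the member probes 250 to 1000 bp upstream of the start had mean ratios of -0.72 ± 2.35 with SMAD1/5, 0.24 ± 0.96 with SMAD2 and 0.36 ± 1.06 with SMAD4 (39 probes each), against -0.21, 0.005 and 0.03 over all probes at that distance. Within 250 bp of the start the means were -0.41, 0.11 and -0.36, against -0.61, 0.03 and -0.05. With SMAD4 the member mean was thus above 0 at 250 to 1000 bp upstream and below 0 within 250 bp of the start. This did not hold for the whole upstream region. Beyond 1000 bp upstream the SMAD4 mean was -0.07 ± 0.75 over the nearer 50 probes and 0.005 ± 0.91 over the farther 133. Over all probes at these distances it was 0.11 and 0.15. Inside the genes, beyond 250 bp, the SMAD4 means were also below 0, at -0.30, -0.19 and -0.23 with rising distance, against 0.11, 0.15 and 0.19. The SMAD4 member mean was thus above that of all probes only at 250 to 1000 bp upstream.

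Of 27 other genes of the pluripotency network and of the signals that feed it, 23 were measured, and none was enriched with any antibody (backgrounds as above). Low windows were found in Tdh, a metabolic enzyme of embryonic stem cells, with SMAD1/5 (z -4.25) and in Tdgf1, the Nodal co-receptor Cripto, with SMAD2 (z -4.02). A z of at least 2 was reached by 2, 3 and 9 of the 23 with SMAD1/5, SMAD2 and SMAD4, against 5.94%, 18.4% and 40.1% of all genes. The highest were Cdh1, which encodes E-cadherin (2.36), and Stat3, the effector of leukemia inhibitory factor (2.30), with SMAD1/5. With SMAD2 they were Lifr, the receptor of that factor (2.63), and Utf1, a chromatin-associated factor (2.34), and with SMAD4 Lifr (3.53) and Mycn (3.26). Their median highest z was 1.35, 1.26 and 1.25.

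Genes of later lineages and of adult tissues were measured in the same way. Among 18 early lineage transcription factors none was enriched, Eomes had a low SMAD1/5 window (z -5.28), and 1, 5 and 5 had a z of at least 2. Among 14 genes of adult tissues, Tg, which encodes thyroglobulin, was enriched with SMAD4 (z 5.63), and 1, 2 and 11 had a z of at least 2. Of all genes, 5.94%, 18.4% and 40.1% reached that z with SMAD1/5, SMAD2 and SMAD4. With SMAD4 the median highest z was 2.75 over these adult genes against 1.51 over the 10 pluripotency genes and 1.74 over all genes.

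**Figure D5:**
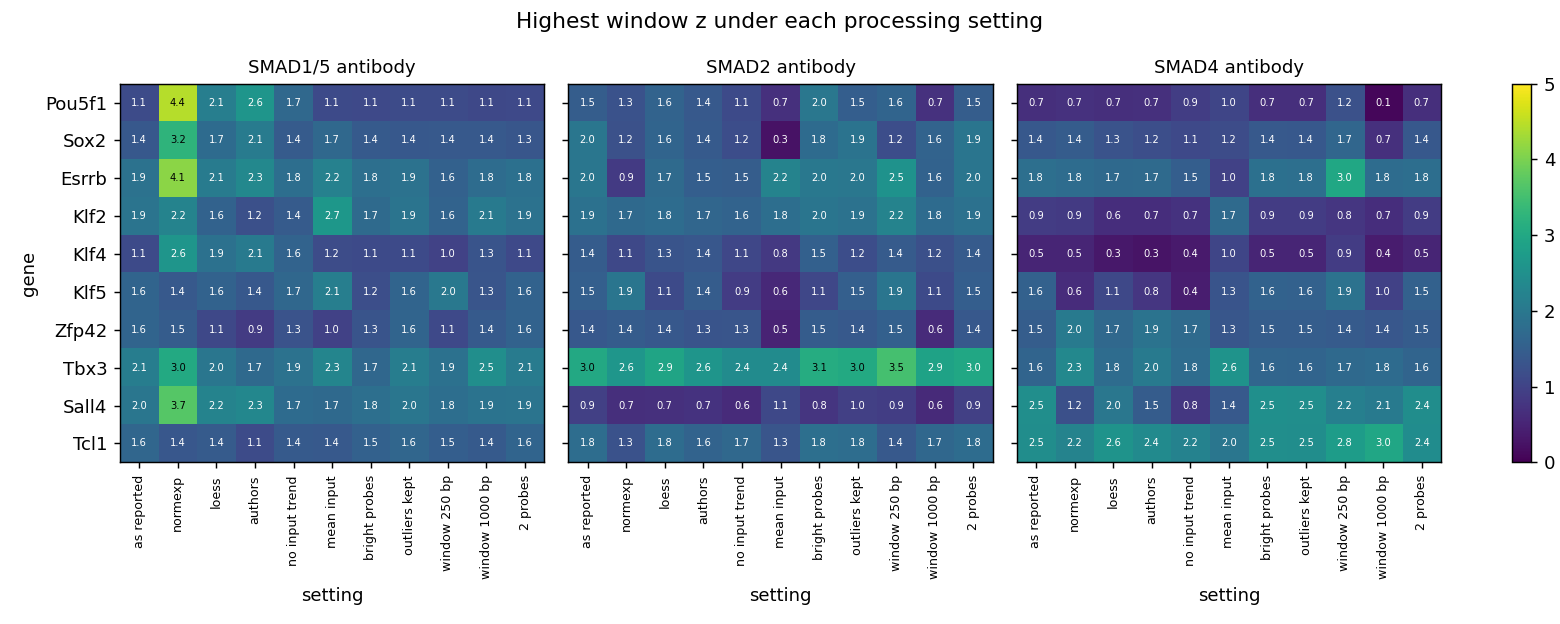
The colour and number of each cell give the highest window z of a gene (vertical axis) under each processing setting (horizontal axis), in robust SDs, with 1 panel per antibody. Tbx3 with SMAD2 lies between 2.40 and 3.52 in all alternatives, and the 2 values above 4, Pou5f1 at 4.44 and Esrrb at 4.14, are both in the normexp column of SMAD1/5.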

How the data were processed

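ChIP-chip signals came from 6 two-colour Agilent promoter arrays of R1 cells, 2 per antibody with different probes, grouped by the antibody in the labels. Per the file headers, the authors' scans were processed by Agilent Feature Extraction, version 9.1.3.1 for SMAD1/5 and SMAD2 and 9.5.3.1 for SMAD4, so for SMAD4 the effects of software and antibody cannot be told apart. Deposited files of each array hold the intensity of each channel as background-subtracted, dye-normalized processed signals, besides mean and background signals and spot flags. The authors' deposited table holds log2 ratios whose exact normalization is not stated; limma is named, per the submitters' processing notes. Its columns had medians of -0.01 to 0.08 and correlated at 0.74 to 0.95 with the processed ratios in the same direction, with slopes of 0.44 to 0.90, so its direction and centring are known from this comparison and its scaling is not. Aligner, build and probe mapping are not given in the sources used here.

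Spots flagged as outliers in either channel were left out (4314 or fewer per array), with control spots, and log2(Cy5/Cy3) was centred on each array's median. Windows of 500 bp to either side with at least 3 probes were scaled by the robust SD of the windows below the median. A gene was called at a z of at least 4 with 2 probes above the 95th percentile. Gene percentiles were taken over genes with at least 10 probes. Of 17095 names, 16115 were updated through RefSeq accessions, 319 through symbols, 367 through older symbols, and 294 were kept, which gave 17039 genes. The window rule was tested on simulated data. The members and gene lists were chosen with earlier results of these data known. The text describes all 10 members and, from each list, genes with an enriched or low window and up to 2 with the highest z per antibody; windows and probes shown are mainly the highest and lowest of a member, and the rest were picked with their values in view. The comparisons of the least z, of the probes near the starts and of the single channels between antibodies, and the following of windows across settings, were added after the data were seen. 10 alternative settings were run. The number of arrays, 1 per probe and antibody, limits the precision. Python 3.11.15, pandas 2.3.3, scipy 1.17.1, statsmodels 0.14.6 and limma 3.58.1 in R 4.3.3 were used.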

Additional observations from a re-analysis of the deposited data

How the results depend on the processing

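Beside the settings reported, 10 alternatives were run: normexp, loess, the authors' deposited log2 table, removal of the trend on the input, the mean of the 3 inputs as denominator, only probes well above background, outlier spots kept, windows of 250 or 1000 bp, and windows of at least 2 probes. Members with a SMAD1/5 z of at least 4 were 2 under normexp and 0 otherwise. Members with a SMAD1/5 z of at least 2, 1 as reported, were 7 under normexp, 3 under loess, 5 in the authors' table, 0 without the input trend, 4 with the mean input, 0 with bright probes and 2 with windows of 1000 bp. The share of all genes at that z, 5.94% as reported, was 43.5%, 16.4%, 15.1%, 11.1%, 19.4%, 3.13% and 9.45% in the same order. With SMAD2, 1 as reported, they were 2 with the mean input, 2 with bright probes and 3 with windows of 250 bp, where the share of all genes was 10.7%, 12.2% and 16.6%. With SMAD4, 2 as reported, they were 1 each under loess, without the input trend and with the mean input (32.96%, 15.9% and 11.9% of all genes) and 3 each under normexp and with windows of 250 bp (26.7% and 39.6%). The share of member probes at a ratio of at least 1 with SMAD1/5 was 9.87% under normexp, 22.9% under loess, 12.8% in the authors' table, 26.9% without the input trend and 22.1% with the mean input. With SMAD2 it was 9.59% in the authors' table, 8.77% without the input trend and 7.12% with the mean input, and with SMAD4 6.93% under normexp, 6.40% without the input trend and 13.3% with the mean input. These shares have no background beside them, as the share of all probes was not computed in these settings. The cause was not tested. As no member was called as reported, no call could be lost. Of the 30 gene medians, 20 took the other sign in at least 1 alternative, 8 of 10 with SMAD1/5 and 6 of 10 each with SMAD2 and SMAD4. The alternatives that change only the windows could not move a median. Without replicates, no replicate could be left out. No paired analysis was possible because each antibody had 1 replicate and no test was made. Signal over background limits the SMAD1/5 ratios at the 64 of 375 member probes whose input was not well above background.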
